A study of Homo sapiens with 4 samples.

Results

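Laminins are the cross-shaped glycoproteins of the basement membrane, the thin sheet of matrix under epithelia and around muscle, fat, nerve and vessels. Each laminin is a trimer of an alpha, a beta and a gamma chain, assembled inside the cell from separate genes. Cells bind the end of the alpha chain through integrins and dystroglycan, and loss of this contact is a known trigger of anoikis, the death of detached cells. The beta3 chain, encoded by LAMB3, is known from a trimer with the alpha3 chain, encoded by LAMA3, which holds epidermal cells to the basement membrane at hemidesmosomes.

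The 9 genes described here encode 5 alpha chains (LAMA1, LAMA2, LAMA3, LAMA4 and LAMA5), 3 beta chains (LAMB1, LAMB2 and LAMB3) and the gamma1 chain (LAMC1), out of 61806 genes in the table. They were chosen by name as laminin chain genes, and the family was chosen by the fall of LAMB3 in both cell lines, so the values of LAMB3 below are a description and support nothing further. By the table, LAMA1 (ENSG00000101680) and LAMA3 (ENSG00000053747) lie on chromosome 18, LAMA2 (ENSG00000196569) and LAMA4 (ENSG00000112769) on chromosome 6, LAMA5 (ENSG00000130702) on chromosome 20, LAMB1 (ENSG00000091136) on chromosome 7, LAMB2 (ENSG00000172037) on chromosome 3, and LAMB3 and LAMC1 (ENSG00000135862) on chromosome 1. The chain genes LAMB4 and LAMC3 are given beside them.

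RNA came from JJ012, a human chondrosarcoma line, and 143B, a human osteosarcoma line. All cells were kept in suspension, the controls included, and were either left untreated or given melatonin at 1 mM for 72 h. There was 1 library per condition (4 libraries in all), so no spread between cultures could be estimated, no p-value is given, and each difference is between 2 libraries. The library totals were between 15889564 and 19218343 counts. These 11 laminin genes took 21324 counts (0.111% of the total) of the JJ012 control and 12142 (0.0752%) of melatonin-treated JJ012. They took 35028 (0.22%) of the 143B control and 35888 (0.209%) of melatonin-treated 143B.

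The lines were checked against marker genes of their tumour types. Of 6 chondrocyte markers, SOX9 was the single gene at or above 1 FPKM in the JJ012 control, at 15.06 FPKM, and COL2A1, the main collagen of cartilage, had 0 counts in both JJ012 libraries. Of 7 osteoblast markers, RUNX2 (4.28 FPKM) and BGLAP (1.44 FPKM) were at or above 1 FPKM in the 143B control. The markers did not separate the lines by tumour type: SOX9 was as high in the 143B control (15.48 FPKM), and the osteoblast list summed to 94.7 FPKM in the JJ012 control, where SPP1 (79.39), COL1A1 (10.92) and RUNX2 (3.02) were at or above 1 FPKM, against 6.97 FPKM in the 143B control. FPKM are counts scaled by exonic length and by the library total, so that levels of different genes can be set side by side.

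The change of a gene with melatonin was taken as the difference in log2(FPKM + 1), which understates the change of low genes. A gene was tested where either library of the pair reached 1 FPKM, and was called lower or higher where the difference was 0.58 or more in size. The log2 ratio of CPM (counts scaled by the library total, with no pseudocount) is given beside it with an exact (Clopper-Pearson) 95% interval. Intervals here cover counting error only, and PCR copies of the same molecule are not independent counts.

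LAMB3 (ENSG00000196878, minus strand of chr1:209614870-209652425 by the table's positions, which follow hg38) had 30.90 FPKM in the JJ012 control and 6.34 after melatonin, from 2760 and 476 counts. In 143B it had 51.23 FPKM in the control and 27.46 after melatonin, from 3783 and 2190 counts. The control was the higher library in both lines, and melatonin-treated JJ012 was the lowest of the 4. The difference was -2.12 in JJ012 and -0.88 in 143B on the log2(FPKM + 1) scale. By CPM, LAMB3 was 4.87-fold lower in JJ012, with a log2 ratio of -2.28 (95% counting interval, -2.43 to -2.14), and 1.87-fold lower in 143B, with a log2 ratio of -0.90 (-0.98 to -0.82). In such bulk RNA, a smaller fraction of cells that express LAMB3 and less LAMB3 mRNA per cell cannot be told apart. Among all tested genes, 0.38% in JJ012 and 3.33% in 143B had a difference as low as that of LAMB3 or lower.

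LAMA3, the alpha chain of the same trimer, was abundant in 143B alone. It had 10.78 FPKM in the 143B control and 6.09 after melatonin (2482 and 1515 counts), a difference of -0.73 that was called lower, with a log2 ratio of CPM of -0.82 (-0.92 to -0.73). In JJ012 just 58 control counts and 2 melatonin counts (0.21 and 0.01 FPKM) kept LAMA3 below the filter, and the log2 ratio of CPM was -4.61 (-7.69 to -2.69). LAMB3, by whose fall the family was chosen, and LAMA3 both had a lower CPM after melatonin in both lines, by more than their counting error. The same held for LAMB2, at -0.91 (-0.97 to -0.85) in JJ012 and -0.14 (-0.20 to -0.08) in 143B. It also held for LAMA5, at -0.21 (-0.35 to -0.07) in JJ012 and -0.61 (-0.67 to -0.56) in 143B. The share of all genes with such intervals in both lines was not computed.

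The values in JJ012 were set beside those of other low genes. Of the 11810 genes with a mean of 0.1 to 1 FPKM over the JJ012 libraries, 57.4% had a lower CPM after melatonin, with a median log2 ratio of -0.30 (0.5 counts added), against 50.9% of 9669 such genes and a median of -0.03 in 143B. The part of this shift in the low chain genes of JJ012 was not tested.

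**Figure D1:**
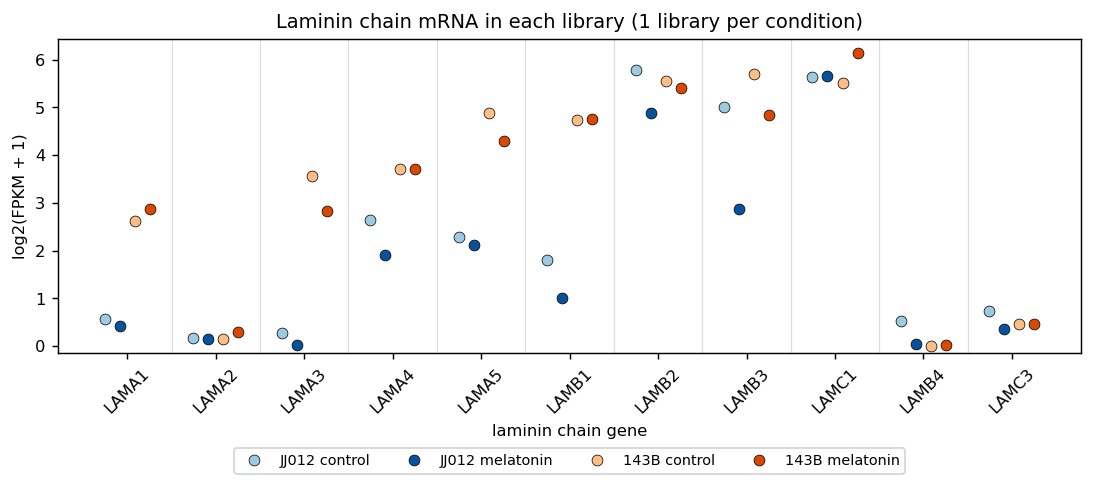
Level of each of 11 laminin chain genes, as log2(FPKM + 1), in the 4 libraries (1 point per library, with no error since there was 1 library per condition). LAMB3 was lower with melatonin in both lines, LAMA1, LAMA3, LAMA5 and LAMB1 were far higher in 143B than in JJ012, and LAMB2 and LAMC1 were high in all 4 libraries.

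LAMB3 and LAMA3 share a short sequence near starts that RefSeq lists for them, shown here because they were the members whose windows held the motif below. LAMA5, called lower in 143B, and LAMA4, LAMB1 and LAMB2, called lower in JJ012, had 0 such sites in their windows. RefSeq promoters (300 bases, from 250 before to 50 after a gene's start, GRCh38.p14) were matched for 9 of the 11 genes, and for 8 of the 9 members, with 11 starts in all. The binding motif of AP-1, a transcription factor of FOS and JUN proteins, was searched as TGANTCA on both strands, a motif whose reverse complement has the same letters. It was present at 2 of the 11 starts, 1 of LAMB3 and the single listed start of LAMA3, against 7.71% of 35116 promoters. Capitals mark the motif in 27 bases each, written in the direction of the gene.

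LAMB3, minus strand, chr1:209651425-209651451: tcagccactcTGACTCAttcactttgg
LAMA3, plus strand, chr18:23872885-23872911: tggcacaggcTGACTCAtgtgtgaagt
LAMA3, plus strand, chr18:23872941-23872967: cttcctcaccTGAGTCAggcaggcccg

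The LAMB3 site begins 67 bases before the last of its 3 listed starts and lies inside the span of the gene. It overlaps no exon of GENCODE 29 and lies 31 bases from the nearest. The windows of the other LAMB3 starts hold no such motif. The LAMA3 sites begin 125 and 69 bases before the listed start, which lies inside the span of the gene, and fall in a 5′ untranslated exon of a LAMA3 transcript in GENCODE 29. The GC box, GGGCGG on either strand, was present at 8 of the 11 starts (45% of all promoters), and neither the TATA box TATAAA (11.5%) nor the hypoxia response core ACGTG (21.4%) was in any of these windows. A match of letters does not show that a factor binds there.

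In JJ012, 6 of the 9 members passed the filter, and 4 of them were called lower (LAMB3, LAMB2, LAMB1 and LAMA4) and 0 higher. Over all 15794 tested genes, 18.6% were called lower and 19.6% higher, so that 51.4% of the calls were higher (62.4% after rescaling to TPM). The median difference was -0.77 over the 6 members and 0.01 over all tested genes. The members are long genes (exonic lengths from 4647 to 26419 bases), and of the 6892 tested genes in that range 8.63% were called lower and 24.1% higher in JJ012, with a median of 0.20. In 143B, 8 of the 9 passed, 3 were called lower (LAMB3, LAMA3 and LAMA5) and 1 higher (LAMC1), against 6.65% lower and 6.09% higher of 14135 tested genes. The median there was -0.07 over the 8 members and 0.03 over all tested genes. Among tested genes of the members' length range in 143B, 2.09% were called lower and 1.85% higher. The counts and medians of the members include LAMB3, by whose fall the family was chosen, so they are not independent of that choice. Apart from LAMB3, the calls were LAMB2, LAMB1 and LAMA4 (lower) in JJ012, and LAMA3 and LAMA5 (lower) and LAMC1 (higher) in 143B.

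Of the other beta chains, LAMB2, the beta chain of muscle and kidney basement membranes, had 53.78 FPKM in the JJ012 control and 28.55 after melatonin. Its log2 ratio of CPM in JJ012 was -0.91 (-0.97 to -0.85). In 143B LAMB2 had 45.80 and 41.51 FPKM, a log2 ratio of -0.14 (-0.20 to -0.08), and was not called. LAMB1, the widespread beta chain of embryonic and vascular basement membranes, had 2.50 and 1.02 FPKM in JJ012 and 25.71 and 26.10 in 143B. It was 2.45-fold lower with melatonin by CPM in JJ012, a log2 ratio of -1.29 (-1.49 to -1.10), and its interval in 143B, -0.02 to 0.07, included 0. LAMB1 overlaps DLD on the other strand (555 to 1663 counts per library) and LAMA5 overlaps ADRM1 (1500 to 2653 counts), and the strand setting of the counting is not given in the sources used here.

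The alpha chains differed in where they were expressed and in their changes. LAMA4, a chain of vessel and mesenchymal basement membranes, had 5.27 FPKM in the JJ012 control and 2.74 after melatonin, a called difference of -0.75, and 12.10 and 12.05 FPKM in 143B, where its log2 ratio of -0.01 had an interval of -0.09 to 0.08. LAMA5, the broadly expressed alpha chain of adult basement membranes, had 3.86 and 3.34 FPKM in JJ012. In 143B LAMA5 had 28.58 and 18.71 FPKM, a difference of -0.59 and a log2 ratio of -0.61 (-0.67 to -0.56). That difference was just past the threshold, and it was not called with TMM factors (-0.58 after rounding) or with the length trend removed (-0.57). Thus LAMA4 was called in JJ012 and LAMA5 in 143B.

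LAMA1, the alpha chain of the earliest embryonic laminin, was below 1 FPKM in JJ012 (142 and 86 counts) and had 5.12 and 6.28 FPKM in 143B (1289 and 1709 counts). Its log2 ratio was -0.47 in JJ012 (-0.88 to -0.08) and 0.30 in 143B (0.19 to 0.40), and neither was called. LAMA2, the alpha chain of skeletal muscle, had at most 100 counts in a library and at most 0.22 FPKM. Its counts were 67 and 46 in JJ012, where the interval of the log2 ratio (-0.87 to 0.27) included 0, and 41 and 100 in 143B, a log2 ratio of 1.17 (0.64 to 1.74).

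LAMC1, the gamma1 chain shared by most laminins, had 48.44 and 49.28 FPKM in JJ012, and the interval of its log2 ratio there, -0.02 to 0.07, included 0. In 143B it had 44.67 FPKM in the control and 69.17 after melatonin (5995 and 10028 counts), a difference of 0.62 and a log2 ratio of 0.63 (0.58 to 0.68). It was the single member called higher in either line, and the call was lost with each library rescaled to TPM, where the difference was 0.57. LAMB4 had 60 and 3 counts in JJ012 and at most 1 count in 143B. LAMC3, a gamma chain of nerve and retina, had 113 and 40 counts in JJ012, a log2 ratio of -1.25 (-1.80 to -0.71), and 54 and 58 counts in 143B, where its interval (-0.57 to 0.55) included 0.

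**Figure D2:**
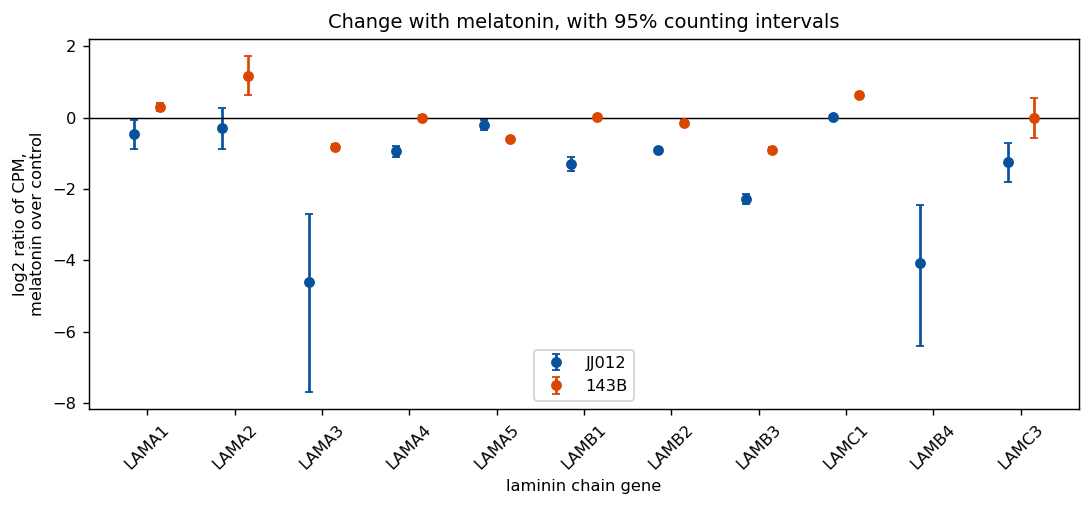
Change of each laminin chain gene with melatonin, as the log2 ratio of CPM over the control of the same line, with exact 95% intervals that cover counting error only. In JJ012 the intervals of LAMA2 and LAMC1 included 0 and the others lay below it. In 143B those of LAMA4, LAMB1 and LAMC3 included 0, and those of LAMA1, LAMA2 and LAMC1 lay above it. Those of LAMA3, LAMA5, LAMB2 and LAMB3 lay below 0 in 143B (LAMB4 there, with 0 control counts, is not plotted). The share of all genes with such intervals was not computed. Of genes with a mean of 0.1 to 1 FPKM in JJ012, 57.4% had a lower CPM after melatonin. LAMB3 is the gene by which the family was chosen.

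The changes of the lines were compared gene by gene as the log2 ratio of CPM in JJ012 less that in 143B, with an exact conditional 95% interval of counting error. For LAMB3 the difference was -1.38 (-1.55 to -1.22), for LAMB1 -1.32 (-1.51 to -1.12), for LAMA4 -0.94 (-1.11 to -0.77) and for LAMB2 -0.77 (-0.86 to -0.69), with the lower ratio in JJ012 each time. LAMC1 also had the lower ratio in JJ012, by -0.61 (-0.67 to -0.54). LAMA5 was the single member with the lower ratio in 143B, at 0.40 (0.26 to 0.55). The lines share no library, and each interval excluded 0, but the spread between cultures is not in them.

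The make-up of the beta and alpha chains followed these values. LAMB3 made up 35.3% of the summed FPKM of the beta chains in the JJ012 control and 17.6% after melatonin, while LAMB2 went from 61.4% to 79.4%. In 143B LAMB3 went from 41.7% to 28.9%, LAMB2 from 37.3% to 43.7% and LAMB1 from 20.9% to 27.5%. LAMB3 was the most abundant beta chain of the 143B control and was below LAMB2 in the other 3 libraries.

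Summed over the beta chains, FPKM were 87.6 (control) and 35.9 (melatonin) in JJ012, and 123 and 95.1 in 143B. For the alpha chains the sums were 9.94 and 6.54 FPKM in JJ012 and 56.7 and 43.4 in 143B. The largest share of the alpha chains passed from LAMA4 (53.0%) to LAMA5 (51.1%) in JJ012, and LAMA5 kept the largest share in 143B (50.4% and 43.2%). These are shares of mRNA and not of assembled trimers.

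**Figure D3:**
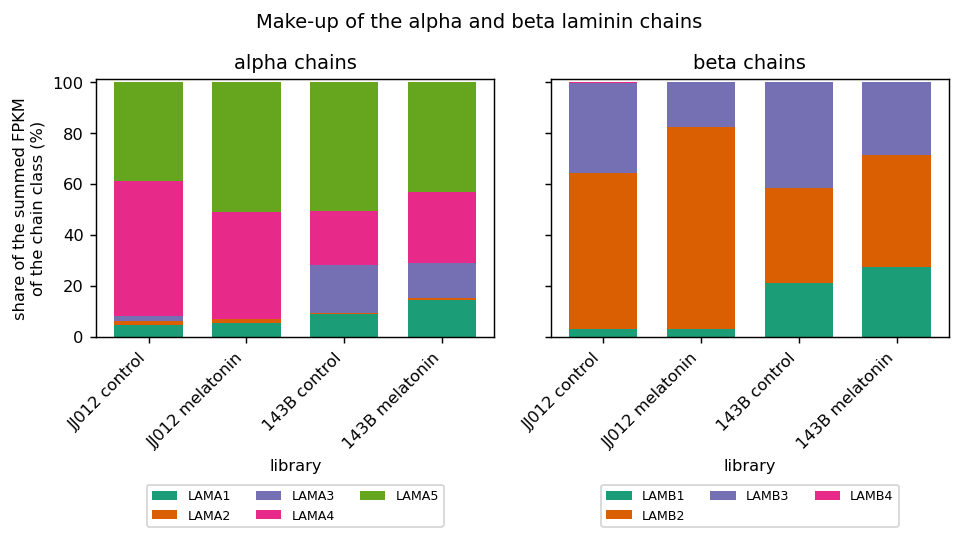
Share of each gene (%) in the summed FPKM of its chain class, for the alpha and beta chains in the 4 libraries (1 bar per library). The LAMB3 share of the beta chains was smaller with melatonin in both lines, and LAMA3 held 19.0% and 14.0% of the alpha chains in 143B and at most 2.11% in JJ012.

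The untreated lines differed in which laminin chains they made. Of the 8 members tested between the controls, 6 were called lower in JJ012 than in 143B (LAMA1, LAMA3, LAMA4, LAMA5, LAMB1 and LAMB3) and 0 higher. Of all 16929 tested genes, 27.4% were called lower and 41.3% higher in JJ012. The median was -1.56 over the 8 members and 0.29 over all tested genes. Of the calls over all genes, 60.1% were higher in JJ012, and this share was 51.2% with TPM, 47.7% with TMM factors and 49.7% with median-of-ratios factors, 48.6% after centring on the median gene and 47.7% with the length trend removed. The number of members called lower was 6 under each of these 5 scalings as well.

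By CPM, LAMA3 was 51.8-fold lower in the JJ012 control than in the 143B control, with a log2 ratio of -5.69 (-6.10 to -5.32). LAMA1 was 11.0-fold lower, LAMB1 10.3-fold and LAMA5 7.41-fold. LAMB2 and LAMC1 were at like levels, with differences of 0.23 and 0.11, and LAMB3 had -0.71. In order of FPKM, the JJ012 control had LAMB2 (53.78), LAMC1 (48.44) and LAMB3 (30.90) far above LAMA4, LAMA5 and LAMB1, with LAMA1, LAMA3 and LAMA2 below 1. The 143B control had LAMB3 (51.23), LAMB2 (45.80) and LAMC1 (44.67) in front, then LAMA5 (28.58), LAMB1 (25.71), LAMA4 (12.10), LAMA3 (10.78) and LAMA1 (5.12), with LAMA2 at 0.10. With 1 library each, neighbours such as LAMB2 and LAMC1 in 143B cannot be ordered beyond the spread between cultures.

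The genes around the laminins were taken as lists by their roles. The lists were chosen with earlier results of these data known, so their counts are a description and not independent of that choice. Of 12 laminin receptors, all tested in both lines, 4 were called lower and 2 higher in JJ012, and 0 lower and 1 higher in 143B, with medians of -0.03 and 0.17. Over all tested genes, as above, 18.6% were called lower and 19.6% higher in JJ012, and 6.65% and 6.09% in 143B, and the counts of the lists below are to be read against these shares. The 4 receptors called lower in JJ012 were 2 with TPM and 2 with a filter of 5 FPKM. Of the 4, ITGA7 (2.03 and 0.70 FPKM) and ITGB4 (1.26 and 0.49 FPKM) passed the filter through the control alone. ITGA6, the alpha6 integrin that binds laminin at hemidesmosomes, had 24.91 and 15.39 FPKM in JJ012, a difference of -0.66, and BCAM, a receptor of the alpha5 chain, had 13.35 and 7.47. In the other direction, ITGA3, the alpha3 integrin of the same ligands, had 103.93 and 181.82 FPKM in JJ012, and the heparan sulphate proteoglycan SDC4 had 17.28 and 36.65. In 143B the called receptor was ITGA2, a collagen and laminin integrin, with 126.16 and 199.84 FPKM.

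Basement membrane partners are the nidogens, perlecan, agrin, SPARC and the collagens IV, XV and XVIII. In JJ012, 5 of the 7 tested of 13 were called lower and 0 higher, with a median of -0.72, and in 143B 0 of the 9 tested were called in either direction, with a median of 0.12. With CPM, 8 were called lower in JJ012, and with a threshold of 1 there were 2. AGRN, the proteoglycan agrin that links laminin to dystroglycan, had 37.93 and 16.41 FPKM in JJ012 and 43.24 and 47.76 in 143B. SPARC, a collagen-binding protein, had 124.78 and 57.05 FPKM in JJ012 and 30.23 and 26.05 in 143B. Of the 6 hemidesmosome genes, all were tested in JJ012, where 4 were called lower and 1 higher. Of the 4, COL17A1 (1.42 and 0.12 FPKM) and ITGB4 (1.26 and 0.49 FPKM) passed the filter through the control alone, and with a filter of 5 FPKM 2 were called lower. The tetraspanin CD151 had 81.91 and 42.85 FPKM, ITGA6 is in this list too, and the linker DST was the one called higher, with 3.03 and 6.14 FPKM. In 143B, 5 were tested and 0 were called.

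Of 12 enzymes that build the laminin-binding sugar of dystroglycan, 1 of 9 tested was called lower in JJ012 and 0 higher. This was B4GAT1, a glucuronyltransferase of that sugar, with 29.63 and 10.93 FPKM. Over the alternatives, 1 to 3 of these enzymes were called lower and 0 to 2 higher in JJ012. In 143B 10 were tested and 0 were called, with a median of 0.24, and 0 to 2 were called higher over the alternatives. Of 6 netrins, relatives of the laminin N-terminus, 2 were tested in each line and 0 were called. The count in 143B rests on the filter: NTN4, with 0.95 and 0.28 FPKM (66 and 21 counts) and a log2 ratio of CPM of -1.76 (-2.55 to -1.04), was called lower there with no filter, TPM, CPM, TMM or median-of-ratios factors.

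Among 10 proteases that cut laminins or activate those that do, 5 of 7 tested were called lower and 0 higher in JJ012, with a median of -0.73, where 18.6% of all tested genes were called lower. With a threshold of 1, 2 were called lower. The matrix metalloproteinase MMP7 had 57.44 and 4.51 FPKM and the elastase ELANE 22.68 and 4.10, and both were at or below 0.06 FPKM in 143B. In 143B 0 of 6 were called lower and 1 higher, PLAU, the urokinase plasminogen activator, with 26.74 and 42.93 FPKM.

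**Figure D4:**
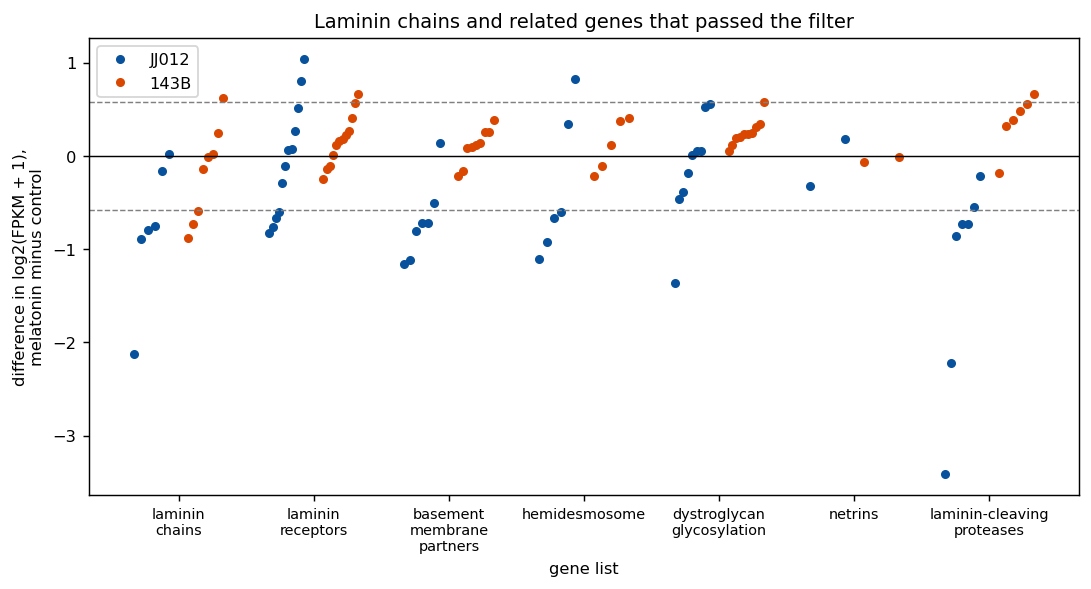
Difference in log2(FPKM + 1), melatonin minus control, for the tested genes of the 11 laminin chains and of the 6 related lists in each line (1 point per gene, dashed lines at 0.58 and -0.58). LAMB3 is the lowest laminin point in JJ012 (-2.12) and in 143B (-0.88), and MMP7 (-3.41) is the lowest of all points.

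Markers of other cell types were read beside LAMB3, which is known from epithelia. The 6 epithelial markers summed to 19.4 FPKM without and 13.5 FPKM with melatonin in JJ012, and to 46.9 and 32.4 FPKM in 143B. Most of this was keratin. KRT18 had 13.77 and 7.49 FPKM in JJ012 and 35.82 and 22.67 in 143B and was called lower in both lines. KRT8, its partner in the filament, had 5.46 and 5.99 FPKM in JJ012 and 9.64 and 8.91 in 143B and was called in neither. EPCAM was below the filter in JJ012 (0.15 and 0.05 FPKM). In 143B it had 1.40 and 0.79 FPKM (54 and 33 counts), a log2 ratio of CPM of -0.82 (-1.49 to -0.17), and was not called. CDH1, KRT5 and KRT14 had at most 2 counts in any library. Other marker lists also had lower sums with melatonin in JJ012. The chondrocyte list went from 16.1 to 6.52 FPKM (SOX9, -1.17, called lower) and the osteoblast list from 94.7 to 68.2 FPKM (COL1A1, -2.75, called lower). The 3 endothelial markers went from 2.23 to 0.93 FPKM (PECAM1, -0.76, called lower) and the 2 leukocyte markers from 3.44 to 2.17 FPKM. In 143B these sums were 16.7 and 13.3, 6.97 and 5.07, 2.40 and 2.05, and 0.83 and 1.20 FPKM. In JJ012, COL1A1 (10.92 and 0.77 FPKM) and PECAM1 (1.81 and 0.66 FPKM) passed the filter through the control alone. The part of all these marker lists in the laminin values was not tested.

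The genes with the pattern most like that of LAMB3 over the 4 libraries were TPM2, RPL17P50, S100A10, TMEM204 and CTHRC1. They had the smallest Euclidean distances to LAMB3, between 0.71 and 0.77, over log2(FPKM + 1) less each gene's own mean, among 8633 genes that carried a Gene Ontology term and reached 5 FPKM in any library. TPM2, a tropomyosin of the actin filament, had 54.71 and 13.88 FPKM in JJ012 and 82.03 and 85.51 in 143B. S100A10, the partner of annexin A2, had 247.31 and 56.99 FPKM in JJ012 and 477.98 and 411.67 in 143B. RPL17P50 is named as a pseudogene copy of a ribosomal protein gene, so its reads may be shared with other copies. In JJ012 the 5 had differences between -2.40 and -1.79, and in 143B between -0.43 and 0.06, all less negative there than LAMB3. The nearest laminin chain was LAMA4, at a distance of 1.15 and place 95.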

How the data were processed

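Poly(A)-selected RNA of 4 libraries was sequenced as paired ends. Per the labels, the processing notes name cutadapt 1.9.1, HISAT2 2.2.1, HTSeq 0.6.1, DESeq2 and hg38. The annotation release and strand setting are not given in the sources used here. The deposited table holds raw counts and FPKM for each gene, and these FPKM equal those counts per exonic length and library total within 0.0051 FPKM for every gene (0 exceptions). Table columns ending in T were read as melatonin-treated, a suffix that no label spells out. Of 58254 genes shared with GENCODE 29 (GRCh38), 94.1% lie within 1000 bases of its positions.

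Totals of 15889564 to 19218343 counts put 3 counts at 0.156 to 0.189 CPM. Differences, calls, filters and intervals were computed as given above, and gene length was followed with a running median over 501 genes. The members and lists were chosen with earlier results of these data known. Named genes were the laminin chains and, per related list, genes called alike in both lines and up to 2 highest and 2 lowest called genes per line with at least 5 FPKM. KRT18, KRT8, NTN4, COL17A1, ITGA7, ITGB4 and the other marker genes were named after their values were seen. Some genes of these families are not reported here. Scripts were tested on simulated data. Python 3.11.15, numpy 2.4.6, scipy 1.17.1, pandas 2.3.3, matplotlib 3.10.9, R 4.3.3 and edgeR 4.0.16 (TMM factors alone) were used.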

Additional observations from a re-analysis of the deposited data

Results flagged for a closer look

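LAMA1 was the single chain of the 11 with counting intervals on opposite sides of 0 in the lines, with a log2 ratio of CPM of -0.47 in JJ012 and 0.30 in 143B. The JJ012 value rests on 142 and 86 counts, and the difference between the lines was -0.77, with a counting interval of -1.19 to -0.36. The ratios are scaled by library totals alone. The JJ012 interval, -0.88 to -0.08, held the median of -0.30 of JJ012 genes with a mean of 0.1 to 1 FPKM. The part of that shift in LAMA1 was not tested. With 1 library per condition, whether the lines differ beyond the spread between cultures was not tested.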

How the results depend on the processing

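No paired analysis was possible because, within a line, the groups compared share 1 library number. A fit of treatment with line as a block, which would take the lines as replicates of each other, was not run. The 11 alternatives changed the pseudocount (0.1 FPKM), the filter (none, or 5 FPKM), the scaling (TPM, CPM, TMM factors, median-of-ratios factors, centring on the median gene), the length trend (removed), the threshold (1) or the genes (those with a Gene Ontology term). LAMB3 in JJ012 was -2.27 with the smaller pseudocount and -1.97 with TPM, against -2.12. With a threshold of 1, the members called lower were 1 in JJ012 (4 in the report) and 0 in 143B (3), and those called higher in 143B were 0 (1). The last count was also 0 with TPM and 2 with CPM. Apart from the stricter threshold, the cause of these moves was not tested. Of the other 77 values, those of LAMB3 lay between -2.25 and -2.03 in JJ012 and between -0.95 and -0.87 in 143B. The member counts among them stayed within 1.5 times of the report. With TPM, CPM, TMM and median-of-ratios factors, the filter and the pseudocount of 1 were applied on the new scale. The tested genes therefore changed too, in JJ012 from 15794 to 23153 with TPM. TPM moved the median gene of JJ012 from 0.01 to 0.21 and the share of its calls that were higher from 51.4% to 62.4%. LAMA5 in JJ012 was then 0.06. Between the controls the median gene, at 0.29, moved to 0.04 with TPM, -0.06 with TMM and 0.40 with CPM. LAMC1 in JJ012, at 0.02, was 0.30 with TPM and -0.22 without the length trend. Over all genes, the calls (higher and lower) were 3102 and 2934 in JJ012, 861 and 940 in 143B, and 6990 and 4636 between the controls. With a threshold of 1 they were 1241 and 1084 in JJ012 and 242 and 387 in 143B. With TPM they were 7629 and 4597, 2779 and 3260, and 9434 and 8985. With the filter of 5 FPKM they were 1861 and 1491, 280 and 267, and 3590 and 2562. In 143B they were 1514 and 1434 with the smaller pseudocount and 447 and 379 over genes with a Gene Ontology term. No test across genes was run.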
